A study of Homo sapiens with 36 samples.

Results

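LIN28A, its paralog LIN28B and 7 further genes of the let-7 microRNA axis were followed across 2 tagged HEK293 clones with and without a hydrophobic ligand. The 9 genes (LIN28A, LIN28B, HMGA1, HMGA2, IGF2BP1, IGF2BP2, IGF2BP3, DICER1 and ARID3B) were taken by symbol from a count table of 36601 genes, and all 9 were present. They were chosen by measured values, the LIN28A counts that are high in clone 4 and near zero in clone 5, so differences between the clones are described for them without a test. HEK293 is an established human line from embryonic kidney, and HaloTag is a protein tag that binds its ligands covalently. The 4 groups, with 3 bulk RNA libraries each, were clone 5 with 25 µM HyT36 (a hydrophobic HaloTag ligand), clone 5 with the vehicle DMSO, clone 4 with 25 µM HyT36, and clone 4 with DMSO. All 12 libraries came from cells of a HaloTag-tagged library, each clone is 1 clone, and untagged cells were not among them. The labels leave unstated the tagged protein of each clone, and the protocols give exposures of 2 and 12 h without saying which one was used for bulk RNA. The series maps cellular responses to hydrophobic targeting of tagged endogenous proteins, and the bulk design compares ligand with vehicle in each clone.

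The let-7 microRNAs silence mRNAs that carry sites matching their seed, and they accumulate as embryonic cells differentiate. LIN28A and LIN28B are RNA-binding proteins of embryonic and tumour cells that bind let-7 precursors and block their maturation, LIN28A by recruiting enzymes that add uridines to the precursor and mark it for decay. HMGA2, the IGF2BP proteins, LIN28B, ARID3B and DICER1 are known let-7 targets, so that LIN28 and its targets are often expressed together.

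The mature let-7 sequences are shown because 1 shared seed defines the family that silences these genes. RefSeq (GRCh38.p14) lists 12 human let-7 and miR-98 loci with a mature sequence from the 5′ arm, which give 9 distinct sequences and 1 seed. Capitals mark the seed, bases 2 to 8 from the 5′ end.
let-7a: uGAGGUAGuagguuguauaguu
let-7b: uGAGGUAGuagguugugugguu
let-7c: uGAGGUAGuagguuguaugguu
let-7d: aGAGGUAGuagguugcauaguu
let-7e: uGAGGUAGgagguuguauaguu
let-7f: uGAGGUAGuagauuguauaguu
let-7g: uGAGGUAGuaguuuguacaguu
let-7i: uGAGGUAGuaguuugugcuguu
miR-98: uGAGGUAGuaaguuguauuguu

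A GGAG motif in the stretch between the arms of the precursor is the known contact of the LIN28 zinc knuckles. It was found in 8 of the 11 let-7 and miR-98 hairpins with both arms in RefSeq (72.7%), on the transcribed strand only. It was found in 52 of 728 other human hairpins (7.14%), and in 9 of the 51 others whose stretch is 23 to 36 bases long like those of let-7 (17.6%). The letters were absent from that stretch in the hairpins of MIRLET7A3, MIRLET7B and MIR98, and MIRLET7F2 was not evaluated. One hairpin with the motif and one without it are shown, on GRCh38.p14, with the GGAG between the arms in capitals. MIRLET7G lies at chr3:52268278-52268361 on the minus strand and MIRLET7A3 at chr22:46112749-46112822 on the plus strand. A match of letters is a description and shows no binding.
MIRLET7G hairpin: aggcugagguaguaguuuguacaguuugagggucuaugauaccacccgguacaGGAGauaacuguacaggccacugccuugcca
MIRLET7A3 hairpin: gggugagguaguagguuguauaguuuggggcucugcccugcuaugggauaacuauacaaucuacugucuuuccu

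Gene counts per library ranged from 22853946 to 28635511, and levels are given as TMM-scaled CPM (counts scaled to the library total and between libraries by edgeR). The kidney-line markers VIM (151 to 232 CPM), KRT8, KRT18, PAX2 and HOXA10 were present in each library. Of the neuronal genes listed for HEK293, NEFL and NEFM had 5 reads each in all 12 libraries, while INA had 2.04 to 6.29 CPM. Of 6 germ cell markers, DAZL had 20.5 to 33.0 CPM, SYCP3 had 0.157 to 0.912 CPM, and PIWIL2, DDX4, MAEL and PIWIL1 had 9, 1, 1 and 0 reads in all libraries. A list of 12 epithelial carcinoma markers separated the libraries. Its summed level was 5.30 to 7.07 CPM in clone 5 with HyT36, 57.8 to 79.1 CPM in clone 5 with DMSO, 4.43 to 69.9 CPM in clone 4 with HyT36 and 4.24 to 111 CPM in clone 4 with DMSO. EPCAM, GRHL2 and KRT80 were among those at 0 in at least 1 library. The libraries rich in these markers (57.8 CPM or more) were all 3 of clone 5 with DMSO, replicates 2 and 3 of clone 4 with HyT36 and replicate 1 of clone 4 with DMSO. In the rich libraries KRT19 made up the largest part of the sum, at 32.2 to 69.9 CPM. It had 0.0418 to 0.235 CPM in the others, while CDH1 did not pass 0.973 CPM in any library. In clone 5 this split coincided with the ligand, so the 2 cannot be told apart there.

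LIN28A was on in clone 4 and near zero in clone 5, with and without ligand. LIN28A (ENSG00000131914, chr1:26410817-26429728 on GRCh38.p14) had 1, 2 and 1 reads in clone 5 with HyT36 and 3, 3 and 1 reads in clone 5 with DMSO. It had 556, 544 and 487 reads in clone 4 with HyT36 and 534, 501 and 510 reads in clone 4 with DMSO. In CPM these were 0.0418, 0.0868 and 0.0424 in clone 5 with HyT36, and 0.1249, 0.110 and 0.0364 in clone 5 with DMSO. They were 20.04, 20.1 and 18.7 CPM in clone 4 with HyT36, and 22.6, 19.6 and 21.2 CPM in clone 4 with DMSO. The 6 clone 4 libraries lay together, the 6 clone 5 libraries lay together far below them, and within each clone the HyT36 and DMSO libraries overlapped.

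With HyT36 the LIN28A level of clone 5 was 0.289% of that of clone 4 (95% exact interval 0.0786 to 0.741%), a level 346-fold lower (135 to 1273). With DMSO it was 0.422% of that of clone 4 (0.169 to 0.871%), or 237-fold lower (115 to 591). These intervals cover counting error only. The guide features gave a measure of reads that appear in the clone they do not belong to. Reads of a guide named for HDAC2, a mark of clone 4, stood in clone 5 at 0.192% of the clone 4 level with HyT36 and at 0.564% with DMSO, and reads of a guide named for IGF1R, a mark of clone 5, stood in clone 4 at 0.278% of the clone 5 level with HyT36 and at 0.237% with DMSO. The share of LIN28A in clone 5 and the shares of guide reads from the other clone were of the same order, and the part of such reads in the LIN28A value was not tested. In bulk RNA, fewer cells that express a gene and less RNA per cell cannot be told apart.

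LIN28B, the paralog that acts in the same pathway, was present in every library of both clones. It had 131, 145 and 128 CPM in clone 5 with HyT36, 134, 130 and 146 CPM in clone 5 with DMSO, 158, 147 and 147 CPM in clone 4 with HyT36, and 160, 153 and 151 CPM in clone 4 with DMSO. Every clone 5 library lay below every clone 4 library of the same treatment. The log2 difference, clone 5 over clone 4, was -0.16 ± 0.05 (SE) with HyT36 and -0.18 ± 0.05 with DMSO.

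**Figure D1:**
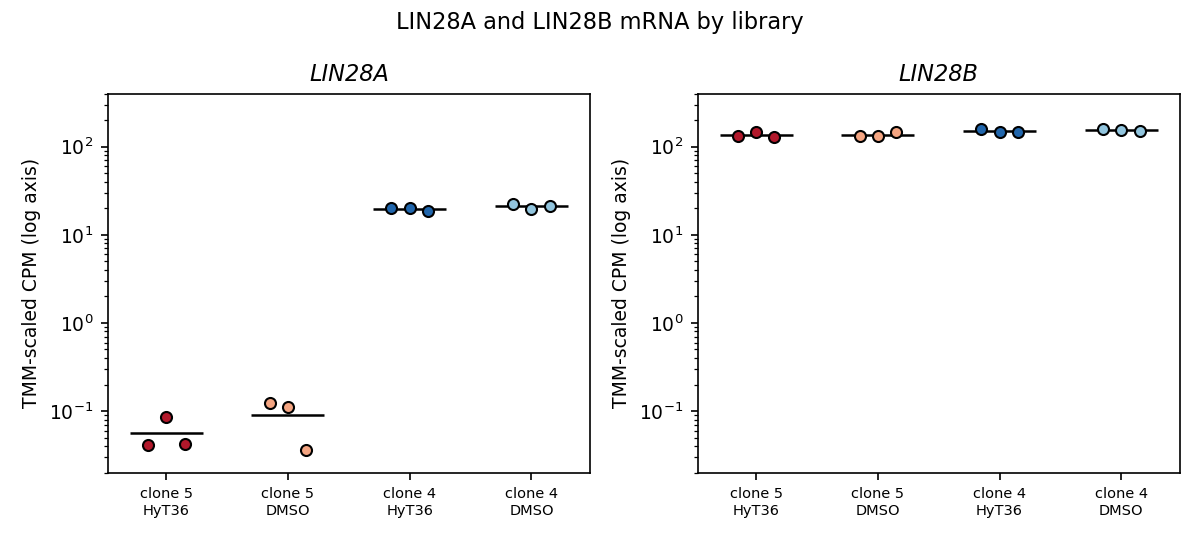
TMM-scaled CPM of LIN28A and LIN28B on a log axis, one point per library and a line at the mean of the 3 libraries of a group. LIN28A lies at 0.0364 to 0.1249 CPM in clone 5 and at 18.7 to 22.6 CPM in clone 4, while LIN28B lies at 128 to 160 CPM in all 12 libraries.

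The other 7 genes differed far less between the clones than LIN28A. With LIN28B, 5 of these 8 lay lower in clone 5 without overlap, 1 lay higher and 2 overlapped with HyT36, and with DMSO 7 lay lower and 1 higher. Of all 14892 genes tested, the libraries of the clones did not overlap for 62.1% with HyT36 (31.7% lower and 30.5% higher in clone 5) and for 59.8% with DMSO (29.9% lower and 29.8% higher). Such separation was therefore common. The log2 difference of the 8 genes, clone 5 over clone 4, ran between -0.55 and 0.20 with HyT36 and between -0.45 and 0.16 with DMSO. The median of the 8 was -0.14 with HyT36 and -0.18 with DMSO, beside -0.0047 and 0.0017 over all genes tested. LIN28A passed the filter on low counts only through its clone 4 libraries, and the other 8 through both clones.

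Among the 9 genes, HMGA1 had the largest difference between the clones after LIN28A. HMGA1, an architectural chromatin protein, had 658, 604 and 634 CPM in clone 5 with HyT36 and 616, 643 and 594 CPM in clone 5 with DMSO. It had 902, 940 and 929 CPM in clone 4 with HyT36 and 767, 902 and 857 CPM in clone 4 with DMSO. The clones did not overlap, and the lowest clone 4 value was that of the DMSO library rich in epithelial markers. The log2 difference was -0.55 ± 0.05 with HyT36 and -0.45 ± 0.05 with DMSO, and the value with DMSO was -0.31 among the libraries rich in epithelial markers. HMGA1 has processed pseudogenes, and nothing states how reads shared with them were counted.

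HMGA2, the related chromatin protein and a classical let-7 target, had 151, 158 and 150 CPM in clone 5 with HyT36 and 144, 152 and 152 CPM in clone 5 with DMSO. It had 186, 179 and 187 CPM in clone 4 with HyT36 and 181, 179 and 179 CPM in clone 4 with DMSO. The clones did not overlap, and the log2 difference was -0.27 ± 0.04 with HyT36 and -0.26 ± 0.04 with DMSO. ARID3B, a DNA-binding protein with an ARID domain, averaged 116 ± 3.81 CPM in clone 5 with HyT36 and 115 ± 2.85 CPM in clone 5 with DMSO (SD, n = 3 each). It averaged 128 ± 3.56 CPM in clone 4 with HyT36 and 130 ± 6.80 CPM in clone 4 with DMSO. Its log2 difference was -0.14 ± 0.04 with HyT36 and -0.18 ± 0.04 with DMSO, with no overlap in either.

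The 3 IGF2BP genes, which encode proteins that bind mRNAs and stabilise them, did not move together between the clones. IGF2BP1 lay at 343 to 361 CPM in clone 5 with HyT36, 354 to 373 CPM in clone 5 with DMSO, 382 to 389 CPM in clone 4 with HyT36 and 402 to 418 CPM in clone 4 with DMSO, lower in clone 5 throughout. IGF2BP2 went the other way, at 110, 106 and 102 CPM in clone 5 with HyT36 and 95.6, 99.2 and 104 CPM in clone 5 with DMSO, against 89.6, 97.2 and 90.8 CPM in clone 4 with HyT36 and 88.9, 88.5 and 90.7 CPM in clone 4 with DMSO. It was the 1 gene of the 9 above clone 4 without overlap, by a log2 difference of 0.20 ± 0.04 with HyT36 and 0.16 ± 0.04 with DMSO. IGF2BP3 had 88.6, 90.7 and 76.1 CPM in clone 5 with HyT36 and 86.4, 79.2 and 81.2 CPM in clone 4 with HyT36, which overlapped. With DMSO it lay lower in clone 5, at 77.2, 80.9 and 80.0 CPM, against 83.7, 82.3 and 84.4 CPM in clone 4.

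DICER1, the nuclease that cuts let-7 precursors into their mature form, had 99.0, 108 and 108 CPM in clone 5 with HyT36 and 97.8, 98.7 and 103 CPM in clone 5 with DMSO. It had 108, 108 and 113 CPM in clone 4 with HyT36 and 112, 109 and 108 CPM in clone 4 with DMSO. The clones overlapped with HyT36 and not with DMSO, where the log2 difference was -0.13 ± 0.04.

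**Figure D2:**
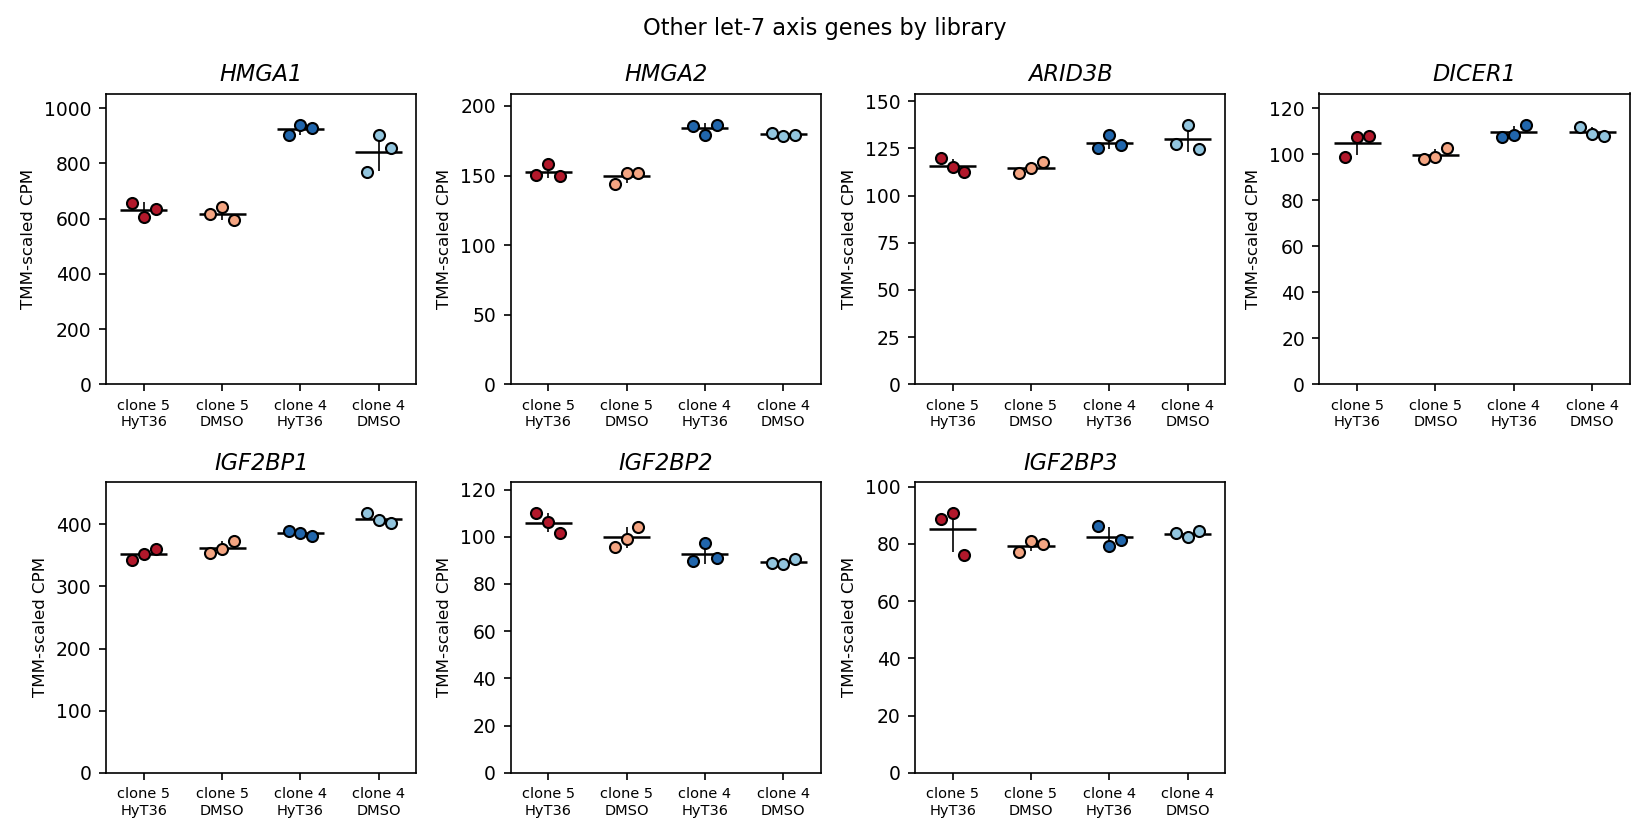
TMM-scaled CPM of the other 7 genes, one point per library, with a horizontal line at the mean and a vertical line over 1 SD to each side (n = 3), and axes from 0. HMGA1 and HMGA2 lie lower in clone 5, IGF2BP2 lies higher, and IGF2BP3 differs little between the groups.

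No gene of the 9 passed the test for a response to HyT36 in either clone. The largest estimates beside LIN28A were those of HMGA1 in clone 4 and of IGF2BP3 in clone 5, with folds over the vehicle of 1.10 and 1.07. Responses were tested with edgeR's quasi-likelihood test, with Benjamini-Hochberg adjustment over the 14892 genes tested and a threshold of 0.05. LIN28A had too few reads in clone 5 to be called there, so counts and medians are given over the other 8. In clone 5, 0 of the 8 genes were called, beside 8.19% of all genes tested, and in clone 4, 0 of 8, beside 5.57%. At an unadjusted p under 0.05 there were 1 in clone 5 and 2 in clone 4. The share of all genes at that unadjusted threshold was not computed, so these counts have no background to be read against. The median log2 fold change of the 8 genes was 0.032 in clone 5 and -0.0096 in clone 4, beside -0.0045 and 0.0027 over all genes tested. No label says whether the 3 libraries of a group were grown apart, and the p-values therefore reflect the spread among libraries alone, which could be technical. In clone 5 the ligand coincides with the split by epithelial markers described above, for these and all later responses of that clone.

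The precision of the test limits how large an unseen response could be. Leaving out LIN28A, the 95% intervals of the 8 fold changes lay within 0.922 to 1.15 in clone 5 and within 0.896 to 1.17 in clone 4. LIN28A in clone 4 had a log2 fold change of -0.11 ± 0.08 (SE; adjusted p = 0.542), with overlapping libraries. In clone 5 it had 4 reads with HyT36 and 7 with DMSO over 3 libraries each, a ratio of 0.637 with an exact interval of 0.137 to 2.51, so a change was not detectable at this depth. LIN28B gave -0.02 ± 0.05 in clone 5 (adjusted p = 0.867) and -0.04 ± 0.05 in clone 4 (adjusted p = 0.734).

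HMGA1 in clone 4 came nearest to the threshold. Its log2 fold change was 0.13 ± 0.05 (adjusted p = 0.11, edgeR), and its libraries overlapped by a single pair of close values, 902.2 CPM in a HyT36 library and 902.3 CPM in a DMSO library. Over 20 alternative settings its adjusted p ran from 7.59e-06 to 0.898, and it was under 0.05 in 5 of them. Without DMSO replicate 1, the library rich in epithelial markers, the log2 fold change was 0.07 (adjusted p = 0.323), and without DMSO replicate 2 it was 0.19 (adjusted p = 0.00852). Among the libraries poor in those markers it was 0.04 (adjusted p = 0.898), with 1 HyT36 library, and among the rich ones 0.29 (adjusted p = 7.59e-06), with 1 DMSO library, so each rests on a single library in 1 arm. The part of the epithelial markers in this value was not tested further. In clone 5 HMGA1 gave 0.03 ± 0.05 (adjusted p = 0.77).

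The 3 IGF2BP genes differed in how near they came to the threshold. IGF2BP1 in clone 4 was the 1 gene of the 9 whose HyT36 libraries did not overlap those with DMSO, where 23.5% of all genes tested did not overlap. It had 389, 386 and 382 CPM in clone 4 with HyT36 and 418, 408 and 402 CPM in clone 4 with DMSO, a log2 fold change of -0.09 ± 0.04 (adjusted p = 0.163). With scaling by library size only, this was -0.11 (adjusted p = 0.036). In clone 5, where 25.1% of all genes did not overlap, all 8 genes other than LIN28A overlapped. IGF2BP2 gave 0.09 ± 0.04 in clone 5 (adjusted p = 0.249) and 0.05 ± 0.04 in clone 4 (adjusted p = 0.593). IGF2BP3 gave 0.10 ± 0.05 in clone 5 (adjusted p = 0.25), and without HyT36 replicate 3, its lowest value of that group at 76.1 CPM, it gave 0.18 (adjusted p = 0.015). In clone 4 it gave -0.02 ± 0.05 (adjusted p = 0.874).

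**Figure D3:**
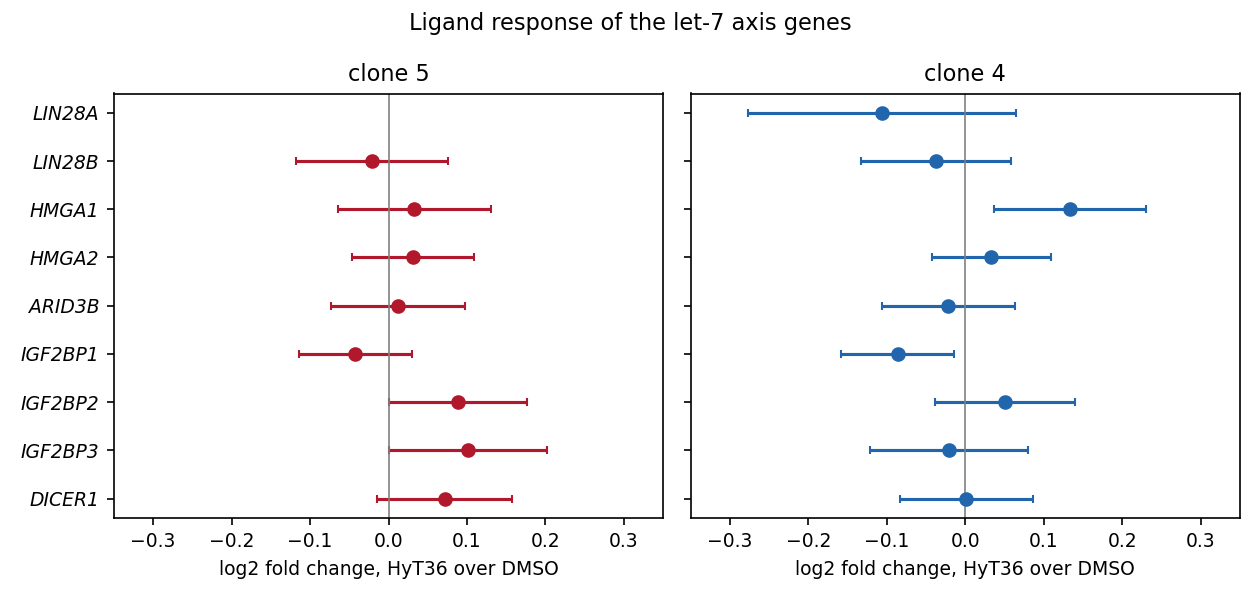
Log2 fold change of HyT36 over DMSO with its 95% interval for each gene in clone 5 and in clone 4 (edgeR, 3 libraries per group). LIN28A is not drawn in clone 5, where it had 4 reads with HyT36 and 7 with DMSO; none of the values passed the adjusted threshold.

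The responses of the 2 clones were compared by their difference, the clone 5 response minus the clone 4 response. LIN28A could not be judged at its depth in clone 5 (estimate -0.50, with too few reads there for a reliable SE). Of the other 8, 0 were called (edgeR), beside 0.302% of all genes tested. At an unadjusted p under 0.05 there were also 0, and the share of all genes at that threshold was not computed. The largest estimates among the 8 were those of IGF2BP3 at 0.12 ± 0.07 (adjusted p = 0.684) and HMGA1 at -0.10 ± 0.07 (adjusted p = 0.738). Across these 8 the fold differences had 95% intervals within 0.848 to 1.202.

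Epithelial markers could be set against the 9 genes within clone 4, where rich and poor libraries occur in both treatments. Between the 3 rich and the 3 poor libraries of clone 4, the 9 genes differed by log2 values of -0.05 (IGF2BP3) to 0.04 (IGF2BP2). The treatments are unevenly spread over this split, with 2 HyT36 libraries and 1 DMSO library rich, and 1 HyT36 library and 2 DMSO libraries poor. HMGA1 averaged 879 CPM in the rich and 887 CPM in the poor libraries, but the 2 treatments went opposite ways. Within DMSO its rich library lay at 767 CPM and its poor ones at 902.3 and 857 CPM. Within HyT36 its rich libraries lay at 940 and 929 CPM and its poor one at 902.2 CPM. LIN28A averaged 20.5 CPM in the rich libraries and 20.3 CPM in the poor ones, with ranges that overlapped.

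Of the enzymes and cofactors that process let-7 and carry out silencing, 12% passed the test for a ligand response in each clone. This stood beside 8.19% of all genes in clone 5 and 5.57% in clone 4. Of 25 such genes, all tested, 1 rose and 2 fell in clone 5 with HyT36, beside 3.35% and 4.83% of all genes. AGO2, the slicing Argonaute, rose by 0.14 ± 0.04 on the log2 scale (adjusted p = 0.0336, edgeR), DGCR8, the partner of the nuclear nuclease DROSHA, fell by 0.18 ± 0.05 (adjusted p = 0.0126), and TNRC6A, a scaffold of the silencing complex, fell by 0.15 ± 0.05 (adjusted p = 0.0426). In clone 4 none rose and 3 fell, beside 2.21% and 3.36% of all genes, namely TRIM71, TNRC6A and TNRC6C, the last also a silencing scaffold. TRIM71, an RNA-binding protein and itself a let-7 target, had 48.0, 47.1 and 47.9 CPM in clone 4 with HyT36 and 59.8, 59.6 and 60.9 CPM in clone 4 with DMSO, a fall with no overlap of -0.33 ± 0.06 (adjusted p = 0.000239). In clone 5 it had 42.6, 48.4 and 54.5 CPM with HyT36 and 56.8, 52.9 and 53.6 CPM with DMSO. This gave -0.17 ± 0.06 (adjusted p = 0.08, edgeR), and the difference between the clones' responses was not called (adjusted p = 0.632). The median of the 25 was 0.044 in clone 5 and -0.039 in clone 4. Leaving out single libraries ended the call of TNRC6A in clone 5 in 9 of 12 cases, of DGCR8 and AGO2 in 3 each, and of TNRC6C in clone 4 in 4, and left those of TRIM71 and TNRC6A in clone 4 in place in all 12. Among the clone 4 libraries poor in epithelial markers, with 1 HyT36 library, TRIM71 gave -0.33, TNRC6A -0.24 and TNRC6C -0.37. Among the rich ones, with 1 DMSO library, they gave -0.33, -0.25 and -0.33. The calls of TNRC6A and TNRC6C did not all hold in these smaller sets, each of which rests on a single library in 1 arm.

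Between the clones, 6 of the 25 genes rose and 7 fell in clone 5 with HyT36, beside 27% and 28.9% of all genes (56% in all), and 4 rose and 12 fell with DMSO, beside 27.3% and 28.2% (55.5% in all). XPO5, which exports microRNA precursors from the nucleus, fell by 0.41 ± 0.04 on the log2 scale in both. TRIM25, which activates the uridylation of let-7 precursors, rose by 0.43 ± 0.04 with HyT36 and 0.39 ± 0.04 with DMSO. TUT4 and TUT7, the uridylating enzymes that LIN28A recruits, were present in both clones. TUT7 had a log2 difference of -0.25 ± 0.08 with DMSO (adjusted p = 0.00521, edgeR) and 0.02 ± 0.08 with HyT36 (adjusted p = 0.812). TUT4 was called in neither comparison. TUT4 had 46.8 to 52.0 CPM in clone 5 with HyT36, 44.5 to 47.7 CPM in clone 5 with DMSO, 46.4 to 48.5 CPM in clone 4 with HyT36 and 43.0 to 47.1 CPM in clone 4 with DMSO.

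The mature let-7 microRNAs are not counted in polyA-selected libraries, and a list of 6 annotated genes that span some of their loci was read instead. These give host transcript levels and not let-7 levels. Of the 6 genes 5 were tested, and MIR100HG, over MIRLET7A2, did not pass the filter on low counts. MIRLET7A1, MIRLET7F1 and MIRLET7I had no spanning gene in the count table, and LINC02603, over MIRLET7D, was in it but was not tested. Between the clones 3 of the 5 rose and 1 fell in clone 5, with HyT36 and with DMSO alike, where 56% and 55.5% of all genes were called. MIR99AHG, over MIRLET7C, had 8.16, 9.68 and 8.27 CPM in clone 5 with HyT36 and 4.61, 4.66 and 5.50 CPM in clone 4 with HyT36, a rise of 0.82 ± 0.12 (adjusted p = 2.76e-07, edgeR). SPACA6, over MIRLET7E, rose by 1.13 ± 0.20 with HyT36, and WDR82, over MIRLET7G, fell by 0.30 ± 0.04. For a response to the ligand, 1 of the 5 was called in clone 5, beside 8.19% of all genes, and 0 in clone 4, beside 5.57%. The 1 called was HUWE1, a ubiquitin ligase gene over MIR98 and MIRLET7F2. HUWE1 averaged 462 ± 3.67 CPM in clone 5 with HyT36 and 388 ± 15.5 CPM in clone 5 with DMSO (SD, n = 3). This was a rise of 0.25 ± 0.04 (adjusted p = 4.7e-05, edgeR).

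Further let-7 targets were spread in both directions between the clones. Of a list of 40, 36 were tested, and 9 rose and 14 fell in clone 5 with HyT36, while 8 rose and 17 fell with DMSO. Those that fell include IGF1R, for which the guide that marks clone 5 is named. Its log2 difference was -0.20 ± 0.05 with HyT36 and -0.22 ± 0.05 with DMSO. The share called was 63.9% with HyT36 and 69.4% with DMSO, beside 56% and 55.5% of all genes. The median was -0.082 with HyT36 and -0.11 with DMSO, beside -0.0047 and 0.0017 over all genes. CCND2, a D-type cyclin, had 5 reads over 3 libraries in clone 5 with HyT36 and 344 in clone 4 with HyT36, 60.1-fold lower in clone 5 (exact interval 25.5 to 186). IGDCC3, a cell surface protein of the immunoglobulin family, had 4.77 to 5.94 CPM in clone 5 with HyT36 and 17.3 to 19.5 CPM in clone 4 with HyT36, a difference of -1.79 ± 0.10 (adjusted p = 1.82e-19, edgeR). ARID3A, a relative of ARID3B, rose by 0.59 ± 0.06.

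In response to the ligand, 1 of the 36 targets rose and 2 fell in clone 5, and none rose and 3 fell in clone 4. This is 8.33% of the targets in each clone, beside 8.19% of all genes in clone 5 and 5.57% in clone 4. TRIM71 is also on the list of processing and silencing genes, and its fall in clone 4 is counted in both. MYC, a growth-promoting transcription factor, fell in both clones, by 0.14 ± 0.04 in clone 5 (adjusted p = 0.0384, edgeR) and by 0.24 ± 0.04 in clone 4 (adjusted p = 0.000192). CDC25A, a cell cycle phosphatase, fell by 0.16 ± 0.04 in clone 5 (adjusted p = 0.00739) and by 0.13 ± 0.04 in clone 4 (adjusted p = 0.0348). INSR, the insulin receptor, rose by 0.22 ± 0.07 in clone 5 (adjusted p = 0.0439). Leaving out single libraries ended the call of MYC in clone 5 in 8 of 12 cases, of INSR in 5 and of CDC25A in clone 4 in 4, and left those of MYC in clone 4 and CDC25A in clone 5 in place in all 12. Among the clone 4 libraries rich in epithelial markers, with 1 DMSO library, MYC gave -0.12 (adjusted p = 0.138, edgeR). The median of the 36 was -0.021 in clone 5 and -0.011 in clone 4.

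LIN28A is also a gene of pluripotent cells, and other pluripotency genes differed between the clones in both directions. Of 20 listed genes 15 were tested, and 7 rose and 3 fell in clone 5 with HyT36, and 8 rose and 3 fell with DMSO. The share called was 66.7% with HyT36 and 73.3% with DMSO, beside 56% and 55.5% of all genes. KLF4, a reprogramming transcription factor, averaged 84.9 ± 6.21 CPM in clone 5 with HyT36 and 40.1 ± 0.385 CPM in clone 4 with HyT36, a rise of 1.08 ± 0.05. DNMT3L, a cofactor of DNA methylation in germ cells, had 80 reads in clone 5 with DMSO and 0 in clone 4 with DMSO, at least 24.8-fold higher in clone 5 against a floor of 3 reads over the group. POU5F1 was lower in clone 5, at 436 ± 7.88 CPM with HyT36 against 599 ± 19.98 CPM in clone 4 with HyT36, though it may share reads with near-identical copies. With the ligand, 4 of the 15 fell and none rose in clone 5 (KLF4, SOX2, DPPA4 and POU5F1), and 1 fell in clone 4 (SOX2), beside 4.83% and 3.36% of all genes that fell. The KLF4 call held without any single library, while those of DPPA4, SOX2 and POU5F1 in clone 5 ended in 1, 2 and 4 of 12 such cases and that of SOX2 in clone 4 in 5. SOX2 in clone 4 gave -0.17 among the libraries poor in epithelial markers and -0.086 among the rich ones. Its call held in neither set, each with a single library in 1 arm.

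The neighbours of LIN28A on chromosome 1 were far closer between the clones than LIN28A itself. LIN28A was chosen for its difference between the clones, so this contrast follows from the choice and is a description. Among the 10 nearest tested genes on each side, within 551 kb, 5 rose and 7 fell in clone 5 with HyT36, and 4 rose and 8 fell with DMSO, a share near the 56% and 55.5% of all genes called. Their log2 differences ran from -0.77 to 0.94 with HyT36 and from -0.89 to 0.86 with DMSO. LIN28A lay at -8.32 ± 0.21 and -7.81 ± 0.19. These SEs understate its counting error, since clone 5 had 4 reads with HyT36 and 7 with DMSO. DHDDS, the nearest neighbour at 2.59 kb, had 32.3 ± 1.27 CPM in clone 5 with HyT36 and 36.3 ± 0.579 CPM in clone 4 with HyT36, and 33.4 ± 1.47 CPM in clone 5 with DMSO and 35.6 ± 0.558 CPM in clone 4 with DMSO. Its log2 difference was -0.17 ± 0.06 with HyT36 (adjusted p = 0.0147, edgeR) and -0.09 ± 0.06 with DMSO (adjusted p = 0.177). The 4 largest differences with DMSO were those of PAQR7 at -0.89 ± 0.13 (adjusted p = 3.19e-07, edgeR), EXTL1 at 0.86 ± 0.44 (adjusted p = 0.0947), CRYBG2 at -0.65 ± 0.40 (adjusted p = 0.171) and SH3BGRL3 at -0.64 ± 0.09 (adjusted p = 1.8e-07).

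**Figure D4:**
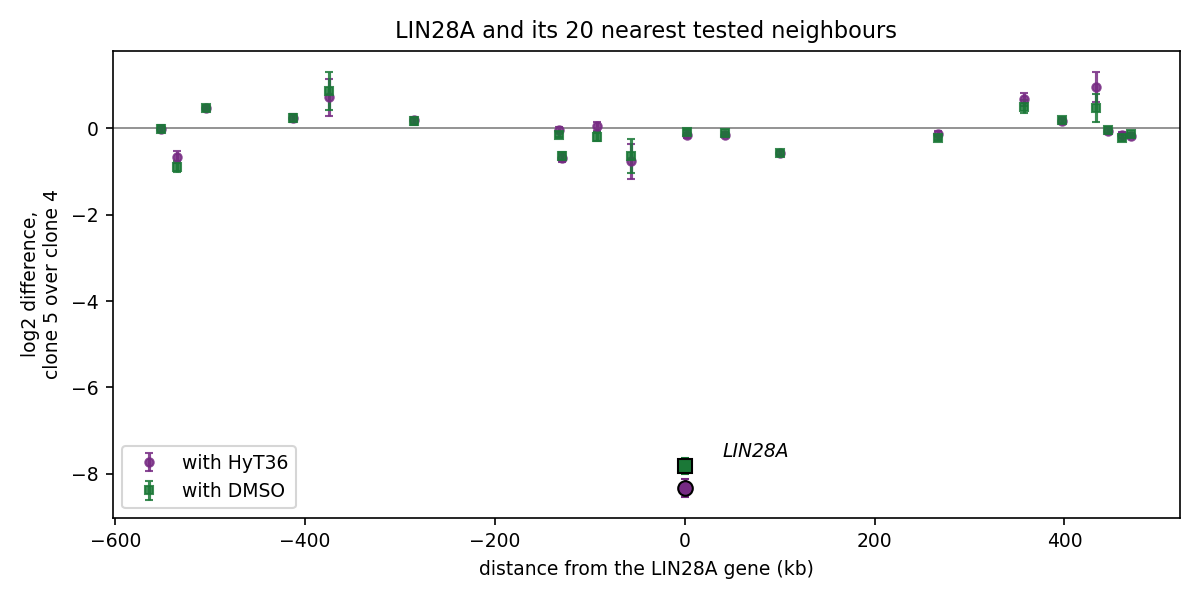
Log2 difference of clone 5 over clone 4 (± SE) for LIN28A and the 20 nearest tested genes against their distance from LIN28A in kb, with HyT36 and with DMSO. LIN28A lies at -8.32 and -7.81, and all 20 neighbours lie between -0.89 and 0.94. The SE drawn for LIN28A understates its counting error, since clone 5 had 4 reads with HyT36 and 7 with DMSO.

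The genes most like LIN28A across the 12 libraries were found by the Pearson correlation of log2(CPM + 0.5), given as a description. The libraries fall into the 2 clones, so the values mostly rank how cleanly a gene separates them, and 206 of 14883 genes had r over 0.99. The first 5 were ELOA, TRIM44, MME, CYYR1 and BCHE, and by Spearman's rank correlation 0 of these 5 remained among the first 5. ELOA, a transcription elongation factor gene that is also on chromosome 1, had r = 0.9994 and averaged 0.795 ± 0.104 CPM in clone 5 with HyT36, 1.04 ± 0.349 CPM in clone 5 with DMSO, 132 ± 4.72 CPM in clone 4 with HyT36 and 149 ± 1.61 CPM in clone 4 with DMSO. Genes with at least 10 CPM in clone 4 and under 0.1 CPM in clone 5, taken as means, were LIN28A and CYYR1, and 2 genes showed the reverse. BCHE lay just outside these limits, at 0.114 CPM in clone 5 and 13.9 CPM in clone 4 with HyT36. With DMSO it had 0.0904 and 13.5 CPM. Of all genes tested, 0.094% had a log2 difference as low as that of LIN28A or lower with HyT36, and 0.0537% with DMSO. CYYR1 had 6 reads in clone 5 with HyT36 and 1751 in clone 4 with HyT36, 255-fold lower (exact interval 117 to 695).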

How the data were processed

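The authors deposited 1 table of raw counts per gene, not normalized, per the file headers. Per the labels' protocols, polyA-selected RNA was prepared with a NEBNext Ultra II kit at a sequencing service. The submitters' processing notes list the build GRCh38 and the tool Cell Ranger 7. The bulk aligner, the annotation and the use of strand were not given in the sources used here, so reads of overlapping genes cannot be told apart. The series holds 36 samples, of which the 12 bulk libraries were used and 24 were not analysed here. Columns were matched to samples by name.

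Guide features (22344) and summary entries were left out of library sizes. Counts were tested with edgeR 4.0.16 in R 4.3.3: filterByExpr by group, TMM scaling, 1 model over all 12 libraries with robust quasi-likelihood dispersions, two-sided tests and Benjamini-Hochberg adjustment over 14892 genes. Standard errors are approximate (log2 fold change over the root of F). Ratios of few reads carry exact 95% binomial intervals. The code was tested on simulated counts. As alternatives, 20 settings were tried, among them DESeq2 1.42.0 and limma 3.58.1. Coordinates and sequences are from RefSeq, GRCh38.p14, matched by symbol.

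The 9 genes and the 4 pathway lists were chosen with earlier results of these data known. Named genes are all 9; up to 4 genes with the smallest p of each list and comparison; the 10 nearest tested neighbours on each side of LIN28A, with up to 4 of the largest difference named; and the 5 genes most like it. TUT4, TUT7, and TRIM71 in clone 5, were added after their values were seen. The chi-square per degree of freedom between replicates lay between 1.95 and 8.71, so no library looked like a copy of another.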

Additional observations from a re-analysis of the deposited data

Results flagged for a closer look

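The ligand response of HUWE1, which spans MIR98 and MIRLET7F2, differed between the clones. The clone 5 response minus the clone 4 response was 0.25 ± 0.06 on the log2 scale (adjusted p = 0.0414, edgeR's interaction contrast). HUWE1 had 466, 460 and 460 CPM in clone 5 with HyT36 and 370, 399 and 395 CPM in clone 5 with DMSO, without overlap. It had 270, 285 and 301 CPM in clone 4 with HyT36 and 272, 301 and 280 CPM in clone 4 with DMSO, which overlapped. In clone 5 the split by epithelial markers coincides with the ligand, so the 2 cannot be told apart. Without 1 of 8 of the 12 libraries the adjusted p of the difference lay between 0.0536 and 0.195.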

How the results depend on the processing

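The LIN28A difference of clone 5 over clone 4, whose direction the choice of genes fixed, ran from -8.71 to -8.02 with HyT36 and from -8.08 to -7.44 with DMSO over 19 settings each. Clone 4 called 1 of the 9 genes under DESeq2 (HMGA1, adjusted p = 0.0458), library size only (IGF2BP1, 0.036), no filter (HMGA1, 0.0116) and the libraries rich in epithelial markers (HMGA1; its single DMSO library takes the spread of the other groups), and 0 to 1 when single libraries were left out, as did clone 5. The difference called 0 throughout. Some calls from the pathway lists ended. Under DESeq2 these were MYC (adjusted p = 0.0638), TNRC6A (0.0833) and INSR (0.0532) in clone 5 and TNRC6C (0.0775) in clone 4. RLE factors ended MYC (0.0561) and TNRC6A (0.0622) in clone 5. Library size only ended AGO2 (0.0864) and INSR (0.09) in clone 5. No filter ended TNRC6A (0.0955), MYC (0.0523) and POU5F1 (0.0701) in clone 5 and CDC25A (0.0901) in clone 4. Replicate numbers did not pair the libraries (correlations of deviations -0.476 to -0.0348). With a replicate block, HMGA1 was called in clone 4 (0.14, adjusted p = 0.0479), which made 1 of the 9, and the calls of TNRC6A (adjusted p = 0.0508) and INSR (0.0549) in clone 5 and of CDC25A (0.0617) and SOX2 (0.0521) in clone 4 ended. Over all genes, single left-out libraries gave 756 to 1618 calls in clone 5 (main 1219; 756 without DMSO replicate 1), 410 to 851 in clone 4 (main 830; 545, 532 and 410 without HyT36 replicates 1, 2 and 3) and 25 to 140 for the difference (main 45; 140 without clone 4 DMSO replicate 1). The libraries poor in epithelial markers gave 287 in clone 4, and no filter gave 169 for the difference. With library size only, the share of calls that rose was 28.5% in clone 5 and 21.8% in clone 4.

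Uncalled values near 0 changed sign. In clone 4 these were DICER1 (-0.024 with library size only, -0.0092 in poor and -0.015 in rich libraries), LIN28B (0.056), IGF2BP2 (-0.00083) and IGF2BP3 (0.050) in poor libraries, and ARID3B in rich ones (0.028). With library size only ARID3B was -0.0093 in clone 5. The difference of HMGA2 was 0.0039 under DESeq2, 0.0041 with RLE factors, 0.0020 with library size only and 0.0040 with no filter. Leaving out single libraries gave -0.045 to 0.027 (ARID3B), -0.016 to 0.018 (DICER1) and -0.057 to 0.0070 (IGF2BP3) in clone 4, -0.0069 to 0.042 (ARID3B) and -0.078 to 0.037 (LIN28B) in clone 5, and -0.0071 to 0.066 (ARID3B), -0.027 to 0.024 (HMGA2) and -0.042 to 0.080 (LIN28B) for the difference. The cause was not tested.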
